A study of Mus musculus with 2 samples.

Results

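The integrated stress response genes described here are 10 mouse genes: Eif2ak1, Atf4, Atf5, Atf3, Ddit3, Trib3, Ppp1r15a, Asns, Ddit4 and Sesn2. They were named by symbol, with earlier results of these data known, and are 10 of the 21911 protein-coding genes of GENCODE M21. EP300, a histone acetyltransferase that transcription factors bring to active enhancers and promoters, was profiled by chromatin immunoprecipitation sequencing (ChIP-seq) in newborn liver. The only group is liver tissue of strain B6NCrl at age 0 days, in 2 replicates, with sex labelled as not collected and with no treatment, mutation or control group. Both replicates carry 1 biosample label and 1 donor label, so differences between them may be technical only. The labels do not say whether that donor is 1 animal or a pool. A peak was assigned to a gene when its summit, the base of highest enrichment, lay within 50 kb of any annotated transcription start site of the gene. By that rule 64 of the 26844 peaks of the optimal list belong to the 10 genes. The optimal list is the deposited list thresholded by the irreproducible discovery rate (IDR), a measure of how well peaks recur between peak lists. Which lists were compared for it is not stated. All positions are on build mm10 and count from 1.

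The integrated stress response is the pathway by which a cell under nutrient, heme, protein folding or mitochondrial stress slows most translation while making a few proteins in larger amount. Kinases phosphorylate the initiation factor eIF2, general translation falls, and messages with upstream open reading frames, that of ATF4 first among them, are translated more. ATF4 and its partners bind C/EBP-ATF response elements (CAREs) and switch on genes of amino acid supply, growth control and, under lasting stress, cell death. In erythroid cells the kinase HRI, the product of Eif2ak1, ties globin synthesis to heme supply, and the newborn liver still holds blood-forming cells beside hepatocytes.

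The authors' signal value ranks peaks within a list, and its scale is not stated. The lists hold no read counts, so the depth of each replicate is unknown and no interval for counting error is given. The optimal list was made from both replicates, whose own lists held 300000 peaks apiece. Summits lay within 10 kb of 5 of 5 hepatocyte marker genes (Alb, Afp, Ttr, Apoa1, Fga) and of 5 of 5 erythroid marker genes (Gata1, Klf1, Tal1, Hbb-bs, Epor). They lay near 0 of 6 markers of muscle, neurons and pancreas. The liver label thus stood beside marks of both cell types, and which of them carried a given peak cannot be told apart in whole tissue.

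All 10 genes had an EP300 summit within 50 kb, against 65.9% of all protein-coding genes. Likewise 10 of 10 had a summit within 10 kb, against 41.0% of all genes. Within 1 kb of a start site 7 of 10 had a summit in the optimal list, against 23.8% of all genes. Eif2ak1, Trib3 and Sesn2 had none. In the conservative IDR list Eif2ak1 had 2 there, the higher with 40.8, and Trib3 had 1 with 27.8. Atf5, Atf3, Ddit4 and Sesn2 had none in that list, for which no share of all genes is given. A gene of the list had a median of 4.50 summits within 50 kb, against 2.00 for all genes. The highest signal value of a gene was 150 at the median of the 10 genes and 68.3 at the median of all genes with a summit. Genes in dense neighbourhoods collect summits of other genes by such a rule: the nearest protein-coding gene was the member itself for 31 of the 64 summits and another gene for 33. Their median signal values were 47.7 for the 31 and 52.2 for the 33. For 10 of the 10 genes, the summit nearest to its start sites had that gene as its nearest gene, against 59.6% of all genes with a summit within 50 kb. The count was 9 in the conservative IDR list and 8 without replicate 1, and no share of all genes is given for either. The target of a peak was not measured.

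**Figure D1:**
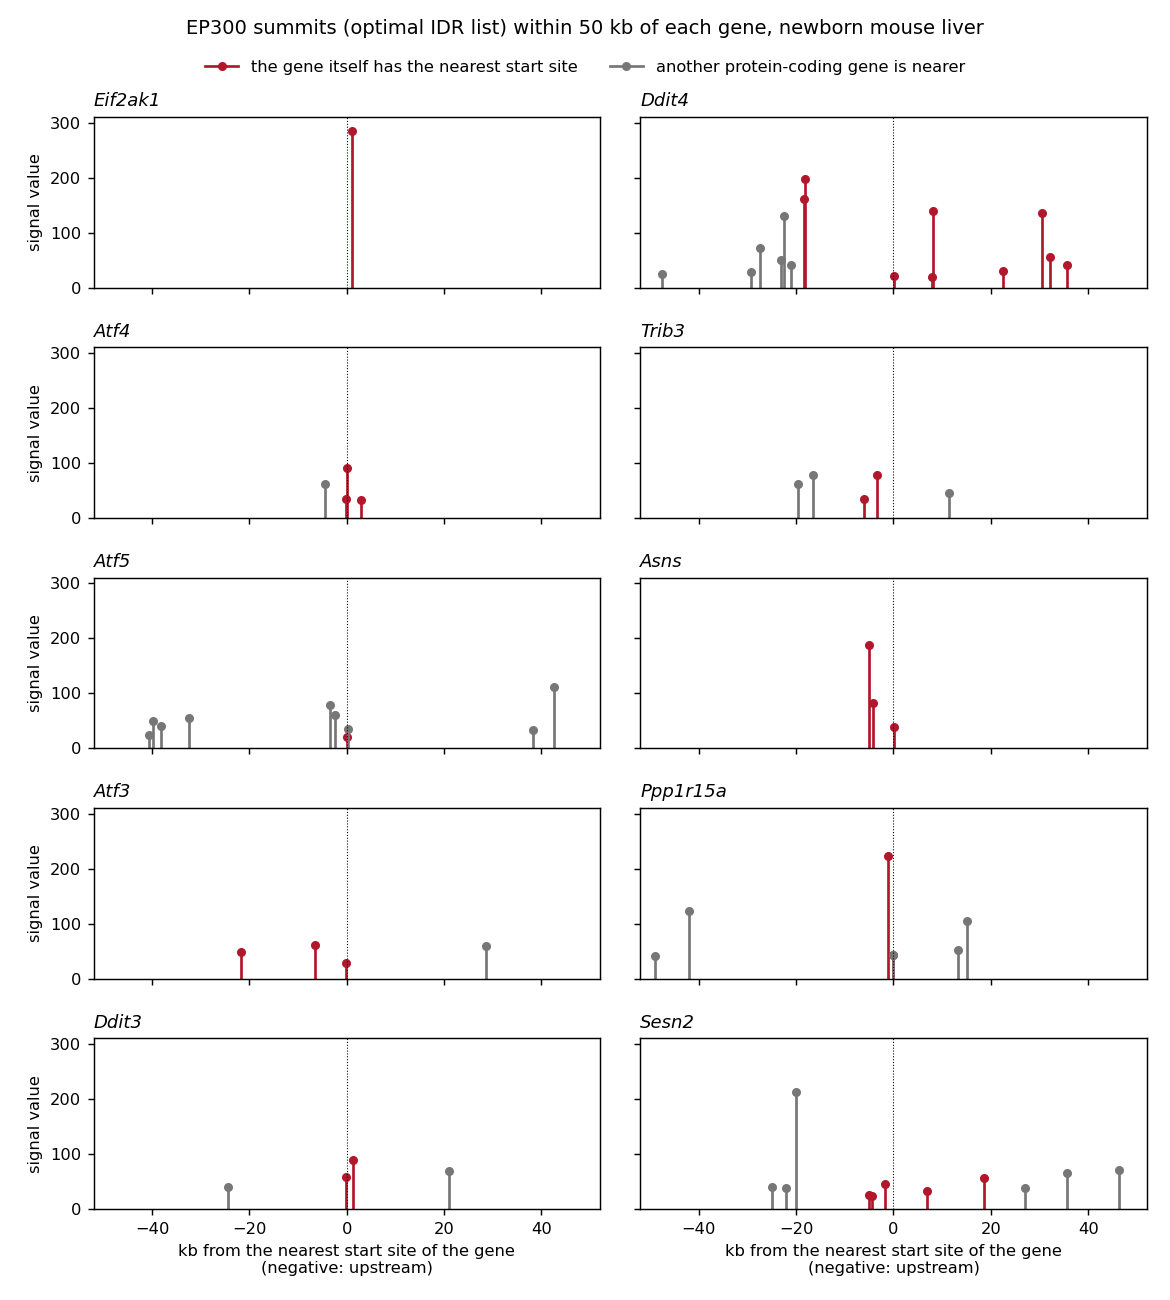
EP300 summits of the optimal list around the 10 integrated stress response genes. The horizontal axis gives the distance from the gene's nearest start site in kb (upstream negative), the vertical axis the signal value, and the colours separate summits whose nearest protein-coding gene is the member from those nearer to another gene. Ddit4 has 15 summits and Eif2ak1 1, and the 1 summit of Eif2ak1 has the highest value, 285. The exon summit of Ppp1r15a, 222, is drawn as upstream because its nearest start site is an internal one.

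Eif2ak1 encodes HRI, the heme-regulated eIF2 kinase, and had the strongest peak of the 10 genes and no other. Its only summit lay at chr5:143819127, in an intron of Eif2ak1, 1.18 kb downstream of the nearest start site. The signal value was 163 in replicate 1, 122 in replicate 2 and 285 in the optimal list, where it stood 561st. Only 6.16% of genes with a summit had one as high. The gene spans chr5:143817788-143904251 on the plus strand, and no other gene was nearer to the summit. Over its start site the replicates' own lists held a peak of 33.0 in replicate 1 and 9.68 in replicate 2, which is absent from the optimal list.

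The sequence under the highest summits of 4 of the genes is shown because the letters GATAA, the core bound by GATA factors, stood close to several of them. The Sesn2 summit of 213 also held these letters, and its window, which touches an untranslated region, is not printed. Each run below is the plus strand of mm10, 50 bases to either side of the summit, with GATAA or its complement TTATC in capitals. These letters were chosen after some of the sequences had been seen.
Eif2ak1 intron, chr5:143819077-143819177: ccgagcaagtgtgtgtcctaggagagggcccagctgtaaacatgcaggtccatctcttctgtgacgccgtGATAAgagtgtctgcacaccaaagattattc
Ppp1r15a exon, chr7:45524903-45525003: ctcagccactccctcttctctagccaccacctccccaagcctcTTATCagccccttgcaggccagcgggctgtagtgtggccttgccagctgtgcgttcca
Asns upstream, chr6:7698146-7698246: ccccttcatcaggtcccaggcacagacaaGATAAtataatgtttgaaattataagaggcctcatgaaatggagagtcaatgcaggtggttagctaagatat
Ddit4 upstream, chr10:59969869-59969969: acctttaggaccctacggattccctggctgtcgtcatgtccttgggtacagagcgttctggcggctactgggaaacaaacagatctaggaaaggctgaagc
The letters stood in the first 3 windows and not in the Ddit4 window. Of the 12 summits near these genes with a signal value over 100, 8 held GATAA within 50 bases, against 70.4% of all optimal peaks over 100. Over all 64 summits 18 (28.1%) did, against 36.3% of all optimal peaks.

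Among the transcription factors, Atf4, which encodes the pathway's central activator, had 4 summits, and the highest lay over its own start site. That promoter summit, 35 bases downstream of a start site at chr15:80255220, had 62.5 in replicate 1, 28.2 in replicate 2 and 91.2 in the optimal list. A further promoter summit 103 bases upstream of another Atf4 start site had 33.8 and fell under the same replicate peak. Upstream by 4.42 kb, a summit in an exon of Mief1, a gene of mitochondrial fission, had 61.3 in the optimal list. The fourth, 2.94 kb downstream, had 32.0, with 26.1 in replicate 1 and 4.61 in replicate 2. Replicate 2 placed that peak at rank 130513 of its list and replicate 1 at rank 13737. Of the 7 genes with a summit within 1 kb, Atf4 was the only one whose highest value was there, 1.49 times the highest farther out.

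Atf5, a related factor that in mammals is tied to the mitochondrial stress response, had 10 summits in a stretch of chromosome 7 crowded with other genes. A single one of the 10 had Atf5 as its nearest gene. It lay 6 bases downstream of the start site at chr7:44816568 and had 19.8 in the optimal list, the lowest of the 64 summits. Replicate 1 held a peak of 37.9 over it, shared with the next summit, and replicate 2 held none. The highest of the 10, 111 at chr7:44772990, lay 42.7 kb downstream of Atf5 in an intron of Vrk3, a kinase gene, with 75.0 in replicate 1 and 36.2 in replicate 2. Other summits were nearest to Nup62, a nuclear pore gene, or to Akt1s1, an mTORC1 partner, among others. Of the 10, the summit 3.46 kb upstream of Atf5 had 79.6, with 41.2 in replicate 1 and 39.6 in replicate 2.

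Atf3 encodes a stress-induced factor that acts on many of ATF4's targets, mostly as a repressor, and its highest value, 60.7, was the lowest maximum of the 10 genes. Of all genes with a summit, 55.6% reached that value. It lay in an exon of the noncoding gene D730003I15Rik, 6.42 kb upstream of the first Atf3 start site, with 37.5 in replicate 1 and 20.2 in replicate 2. The promoter summit at chr1:191183460, 120 bases upstream of an internal start site, had 21.9 in replicate 1, 5.20 in replicate 2 and 27.8 in the optimal list. That start site lies 34.7 kb inside the gene, which spans chr1:191170296-191218039 on the minus strand. The RefSeq promoter window of Atf3, chr1:191183284-191183583, lies at this internal start site and not at the first one. Summits of 47.7 and 58.8 lay 21.8 kb upstream and 28.6 kb downstream of the nearest Atf3 start sites.

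Ddit3, which encodes CHOP, the factor linked to death under lasting stress, had 4 summits, 2 of them nearest to the gene. The higher of these lay in its intron, 1.27 kb downstream of the nearest start site at chr10:127292094. It had 66.5 in replicate 1, 18.5 in replicate 2 and 88.4 in the optimal list. The other, 199 bases upstream of the start site, had 40.1 in replicate 1, 26.3 in replicate 2 and 57.3 in the optimal list. Farther away, promoter summits of Dctn2, a dynactin subunit, and of Mars, the methionyl-tRNA synthetase, had 40.7 and 69.8.

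Of the feedback genes, Ppp1r15a, which encodes GADD34, the subunit that brings a phosphatase to eIF2, had the stronger peak. Its highest summit, chr7:45524953, lay in an exon of the gene, 1.31 kb inside its first start site. The signal value was 139 in replicate 1, 87.8 in replicate 2 and 222 in the optimal list, at rank 1004. In addition 2 summits lay within 1 kb, with 43.6 and 43.8, both under 1 replicate peak of 34.0 in replicate 1 and 23.5 in replicate 2. The second of these was nearer to Plekha4, whose start site is 113 bases away. A summit 42.0 kb upstream, in an exon of the noncoding gene 0610005C13Rik, had 123. It lay nearest to Bcat2, the mitochondrial branched-chain aminotransferase, and was also the highest summit within 50 kb of Fgf21, a liver hormone gene that ATF4 induces. A summit in an exon of Nucb1 had 104.

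Trib3, a pseudokinase gene induced by ATF4 whose product restrains it, had 5 summits and none over its start site in the optimal list. The summit 3.28 kb upstream, in an intron of Gm14164, had 54.8 in replicate 1, 22.3 in replicate 2 and 78.5 in the optimal list. Another of 78.5 lay 16.5 kb upstream, nearest to Nrsn2, with 55.9 in replicate 1 and 24.4 in replicate 2. Both ranked close together, at 5004 and 4995. The replicates' own lists held a start-site peak of 22.3 in replicate 1 and 7.73 in replicate 2, at ranks 16857 and 30910, and the conservative IDR list held it at 27.8.

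Among the metabolic targets, Asns encodes asparagine synthetase, a textbook target of ATF4, and had 3 summits, all nearest to Asns. The strongest lay 4.94 kb upstream at chr6:7698196 and had 133 in replicate 1, 55.3 in replicate 2 and 188 in the optimal list. A neighbour 4.15 kb upstream had 61.0 in replicate 1, 20.6 in replicate 2 and 83.1 in the optimal list. The promoter summit, 53 bases downstream of the start site, had 28.5 in replicate 1, 9.68 in replicate 2 and 39.6 in the optimal list. The promoter value was thus 0.211 times the highest upstream value.

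Ddit4 encodes REDD1, an inhibitor of mTORC1, and had 15 summits, the most of the 10 genes. Only 0.762% of all genes had as many. Within 50 kb the only other gene nearer to a summit was Anapc16, a subunit of the anaphase-promoting complex, and Ddit4 was nearest for 9 of the 15. The highest lay 18.1 kb upstream at chr10:59969919, with 126 in replicate 1, 66.8 in replicate 2 and 198 in the optimal list. Next to it, 18.3 kb upstream, a summit had 103 in replicate 1, 57.8 in replicate 2 and 161 in the optimal list. A further upstream summit, at 22.4 kb and nearer to Anapc16, had 131. Downstream of the gene, summits at 8.09 kb and 30.5 kb had 140 and 136. These 5 exceeded 100 in the optimal list, whereas the promoter summit, 18 bases downstream of the start site, had 13.1 in replicate 1, 5.75 in replicate 2 and 21.3 in the optimal list. The promoter value was 0.108 times the highest, the lowest such ratio of the 7 genes. That promoter summit was absent from the conservative list.

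Sesn2 encodes sestrin 2, a leucine sensor that holds mTORC1 back, and had 11 summits, none within 1 kb. The nearest, 1.75 kb upstream at chr4:132512248, had 34.5 in replicate 1, 11.4 in replicate 2 and 44.6 in the optimal list. In a Sesn2 intron, a summit 6.96 kb downstream of the start site had 32.6. The highest, 213 at chr4:132530587, lay 20.1 kb upstream in an exon of Atpif1, the mitochondrial ATPase inhibitory factor, whose start site is 2.90 kb away. It had 131 in replicate 1 and 77.6 in replicate 2. Other summits were nearest to Dnajc8 and to Med18, a Mediator subunit, whose promoter summit had 71.4. A start-site peak stood at rank 27180 in replicate 1 and at rank 181266 in replicate 2, with 15.3 and 4.13, and in neither IDR list.

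**Figure D2:**
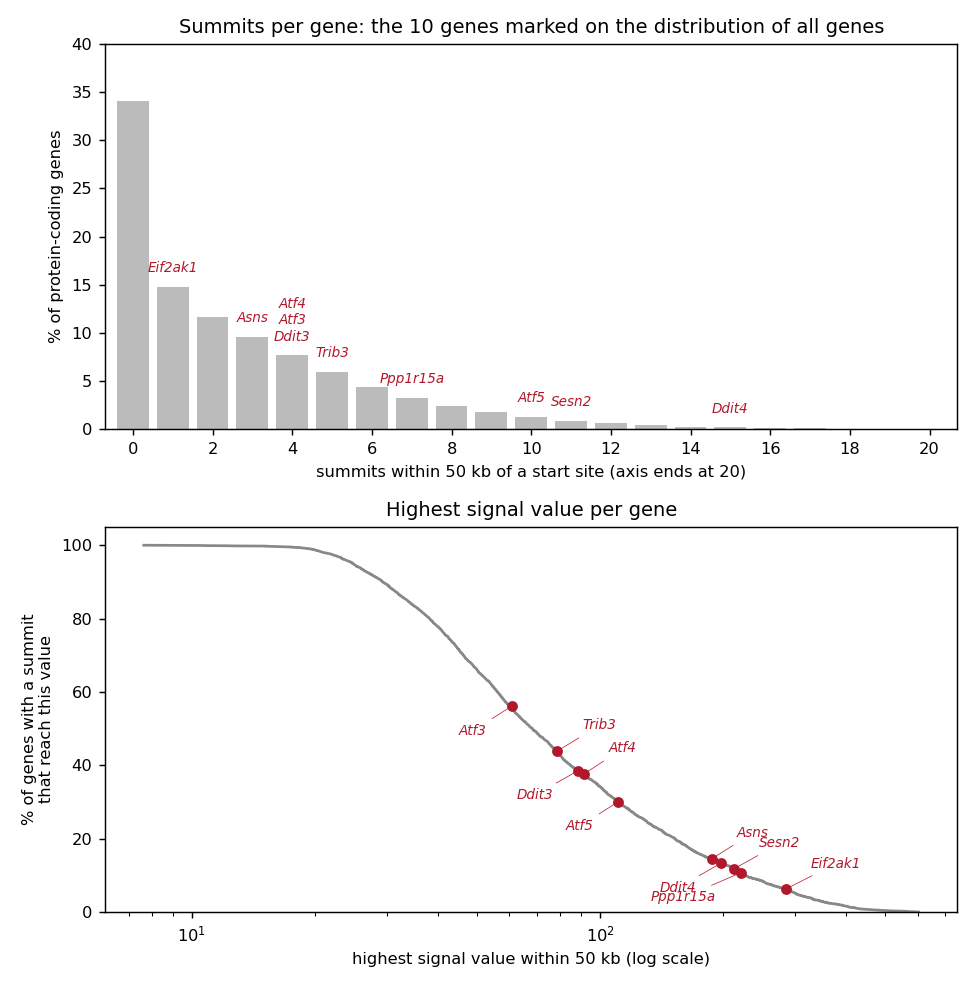
The upper panel gives the share of all protein-coding genes (bars, %) by number of summits within 50 kb, with the 10 integrated stress response genes written above their number. The lower panel gives the share of genes with a summit whose highest signal value reaches the value on the log axis, with the 10 genes as points, which run from 60.7 (Atf3) to 285 (Eif2ak1).

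Taking the 64 summits as a set, they lay more often in promoters and exons and less often in introns than the optimal list as a whole, by share. Promoters held 23 (35.9%), against 23.4% of all optimal peaks. Exons held 8 (12.5%), against 4.56%. Introns held 9 (14.1%), against 42.1%, and intergenic sequence 24 (37.5%), against 29.9%. These shares follow in part from a rule that takes summits near start sites, and no test was made of them. The signal value ran from 19.8 to 285 with a median of 51.5, against 7.32 to 633 with a median of 38.3 for all optimal peaks. Values over 100 were held by 12 summits (18.8%), against 13.3% of all optimal peaks. In 6 of the 7 genes with a summit within 1 kb, the highest value within 50 kb stood farther out. For all genes with a summit within 1 kb the share was 63.0%. Of the 7 genes, Atf5, Atf3 and Ddit4 had no summit within 1 kb in the conservative list.

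Most matched summits had the higher value in replicate 1, as did most of the optimal list. A peak of replicate 1 overlapped 64 of 64 (100%), against 99.8% of all optimal peaks, and a peak of replicate 2 overlapped 61 (95.3%), against 95.9%. The 3 without a match in replicate 2 were the Atf5 start-site summit of 19.8 and Sesn2 upstream summits of 23.6 and 24.7. Where both matched, replicate 1 was higher in 60 of 61 (98.4%), against 94.6% of all matched optimal peaks, the exception being an Atf5 summit with 14.4 in replicate 1 and 16.9 in replicate 2. The median log2 ratio was 1.05 (replicate 1 over replicate 2, range -0.23 to 2.71), against 0.95 over all optimal peaks. The median ratio was 1.17 at the promoter summits, against 1.09 at all promoter peaks, and 0.71 at the exon summits, against 0.95 at all exon peaks. Spearman's rho between replicates was 0.78 over the 61 peaks, against 0.73 over 25702 matched optimal peaks, as a description of peaks that share libraries. Since the optimal list was made from the replicates, a match is no independent evidence. A match needed only 1 shared base. With summits within 100 bases, 55 of the 64 matched in both replicates, against 61. With an overlap of at least 50% of both peaks, 54 did. No share of all peaks is given for these stricter rules. Within the optimal list, 48 of 64 (75.0%) had the highest IDR score, 1000, against 55.5% of all peaks. Of the 64, 56 (87.5%) also stood in the conservative list, against 74.4%. Neither means a match in both replicates: without a match in replicate 2, the Atf5 summit of 19.8 scored 1000. Likewise the Sesn2 summit of 24.7 stood in the conservative list.

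**Figure D3:**
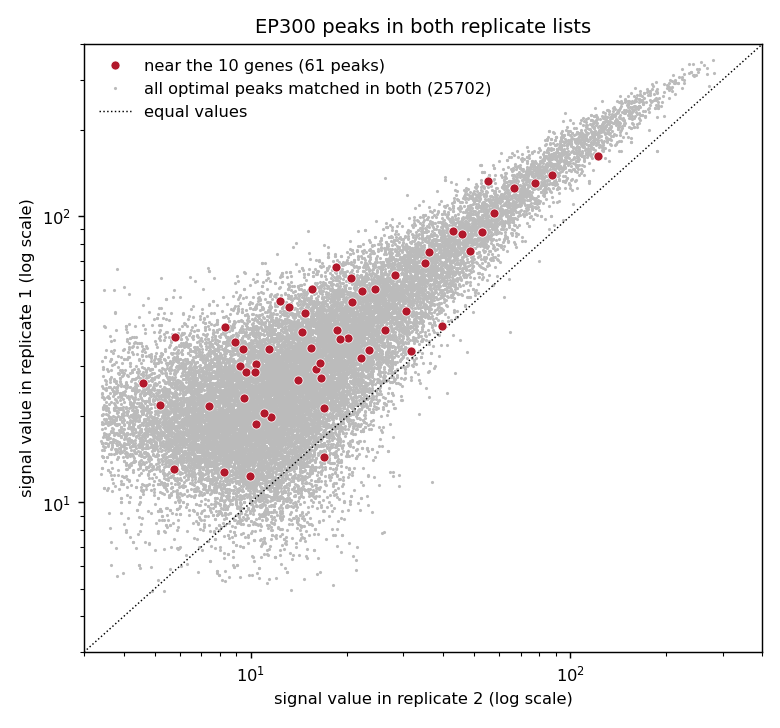
Signal values of the matched peaks in replicate 1 (vertical, log scale) and replicate 2 (horizontal, log scale), for the summits near the 10 genes and for all optimal peaks in grey. Of the 61 matched summits 60 have the higher value in replicate 1, and of these the Eif2ak1 summit (163 and 122) has the highest value in both replicates.

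CAREs, the elements that ATF4 dimers bind, were searched as TGATGNAA on both strands, where N is any base. They stood within 50 bases of 5 of the 64 summits (7.81%), against 2.45% of all optimal peaks. Of the promoter summits 3 of 23 held one, against 1.35% of all promoter peaks, and of the others 2 of 41, against 2.79%. In RefSeq promoter windows (GRCm38.p6, 250 bases before to 50 after the start), the letters stood in 3 of the 11 windows of the 10 genes, against 3.97% of 32817 windows. The 3 were those of Asns, Atf3 and Trib3. Matches near 4 of the genes are shown as 30 bases of mm10 on the strand that reads TGATG, with the element in capitals, because the element is the one the pathway is known for. Distances beside them are from the nearest GENCODE M21 start site. Counted from the RefSeq start, the side differs for 2 of them. The first base of the Asns match stood at -23 (upstream) and that of the Trib3 start match at 15 (downstream).
Asns, chr6:7693214-7693243, minus strand, 26 bases downstream of the nearest start site: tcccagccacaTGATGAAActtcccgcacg
Atf3, chr1:191183425-191183454, plus strand, 99 bases upstream: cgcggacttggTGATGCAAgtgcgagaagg
Trib3 start, chr2:152344028-152344057, plus strand, 10 bases upstream: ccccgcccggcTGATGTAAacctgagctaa
Trib3 upstream, chr2:152350066-152350095, minus strand: gcaaggctttcTGATGCAActggctgaatt
Ddit4 downstream, chr10:59943775-59943804, plus strand: tgtagggccgaTGATGTAAtttgactataa
The summits beside these letters had optimal signal values of 39.6 (Asns), 27.8 (Atf3), 34.8 (Trib3, 6.01 kb upstream) and 140 (Ddit4). No optimal peak lay over the element at the Trib3 start. A match describes letters and does not show that a factor was bound.

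The other motifs, 11 with CARE, stood at the 64 summits as follows. The KLF letters CCNCNCCC stood at 22 summits (34.4%), against 13.8% of all optimal peaks. AP-1, TGANTCA, stood at 8 (12.5%), against 5.62%, and ETS, CCGGAAG, at 4 (6.25%), against 2.76%. C/EBP, TTNNGNAA, stood at 14 (21.9%), against 25.5%, the letters AGATAA of the GATA factors at 15 (23.4%), against 22.3%, and HNF4, CAAAGNNCA, at 2 (3.12%), against 4.94%. FOXA, TGTTTAC, stood at 3 (4.69%), against 3.06%, and MAF-NRF2, TGACNNNGC, at 3 (4.69%), against 5.58%. The CRE letters TGACGTCA and the NRF1 letters GCGCNTGCG stood at 0 of the 64, against 0.425% and 0.369%. Base composition differed beside these values: the median GC content of the windows was 54.5%, against 47.5% for all optimal peaks, and for summits outside promoters 53.5%, against 46.5%. Its part in the motif shares was not tested. The letters of CARE, C/EBP and AP-1 can lie over the same bases, so 1 window can count for several of them. In the 11 RefSeq promoter windows, KLF stood in 9, against 49.5% of all windows, and MAF-NRF2 in 3, against 12.4%. GATA stood in 2, against 11.2%, ETS in 2, against 8.86%, and AP-1 in 1, against 7.81%. CRE stood in 1, that of Ppp1r15a, against 1.79%. C/EBP stood in 2, against 40.7%. FOXA, HNF4 and NRF1 stood in 0, against 3.65%, 6.36% and 6.30%.

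**Figure D4:**
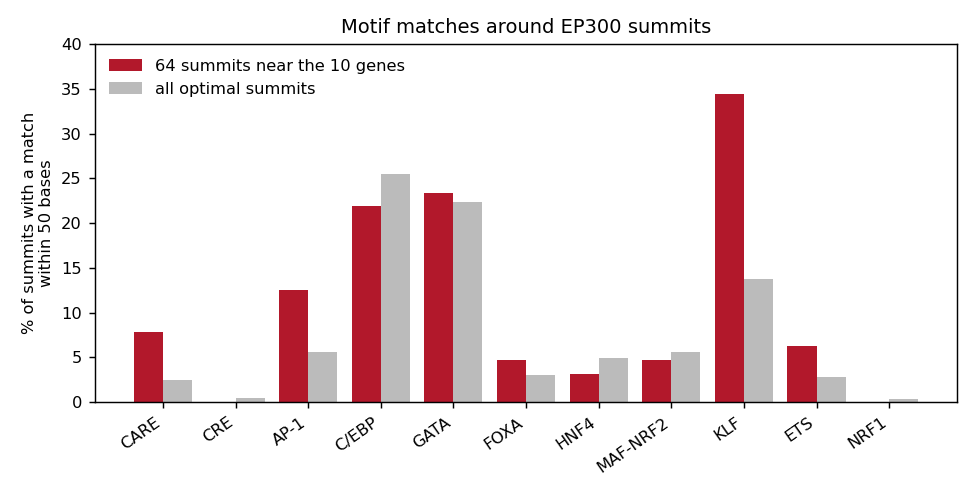
Share of summit windows (%) that hold each of the 11 motifs, 50 bases to either side of the summit, for the 64 summits near the 10 genes and for all optimal peaks. KLF letters stand at 34.4% and CARE letters at 7.81% of the 64, against 13.8% and 2.45% of all optimal peaks.

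The wider pathway was covered by 73 further genes in 8 groups. Of these, 67 had a summit within 50 kb, where 65.9% of all genes had one, and 53 within 10 kb, where 41.0% of all genes had one. The median of their highest values was 81.1, against 68.3 for all genes with a summit. The counts by group below are of summits within 50 kb. Each of the 6 kinases and sensors had one, and Dele1, which relays mitochondrial stress to HRI, had the highest, 225, with 151 in replicate 1 and 76.0 in replicate 2. Of 10 subunits of eIF2, eIF2B and the phosphatase, 8 had one, Eif2s2 and Eif2b5 having none. Ppp1r15b, the constitutive counterpart of Ppp1r15a, had the highest, 173. Among bZIP partners and cofactors 6 of 6 had one, and Cebpa and Cebpg shared a summit of 131.

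Amino acid synthesis genes had one in 9 of 11 cases, without Aldh1l2 and Chac1, and Aldh18a1, an enzyme of proline synthesis, had the highest, 269, with 171 in replicate 1 and 95.5 in replicate 2. Of the transporters 7 of 8 had one, without Slc7a3, and Slc6a9, the glycine transporter, had 351, with 226 in replicate 1 and 120 in replicate 2. All 12 tRNA synthetase genes had one, and Nars had 470, in an intron of Fech. Of secreted and other targets 9 of 10 had one, without Vldlr, and Xpot had 392, at a promoter of Tbk1. Endoplasmic reticulum stress genes had one in 10 of 10 cases, and Hspa5, the chaperone BiP, had 223, with 132 in replicate 1 and 89.8 in replicate 2, at a summit 9.57 kb upstream whose nearest gene is Gapvd1.

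At the edge of the rule, the farthest summits inside 50 kb were those of Ppp1r15a at 49.0 kb (41.1) and Ddit4 at 47.5 kb (25.5). The nearest just outside were those of Ddit4 (27.9) and of Trib3, at 52.1 kb (14.5), followed by that of Atf5 at 53.3 kb. Eif2ak1's next summit, at 59.5 kb, had 54.3, and that of Sesn2, at 82.2 kb, had 320.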

How the data were processed

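EP300 ChIP-seq peak lists of 2 replicates of newborn mouse liver were used, with the pooled list and the IDR lists, optimal and conservative, made by the authors from both replicates, per the file headers and the descriptions deposited with the lists. The authors' signal value (column 7) is the peak caller's, on an unstated scale. The deposited optimal list also gives an IDR score, up to 1000. Not given in the sources used here: aligner, caller, IDR threshold and versions. The files held 0 columns of other series.

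Optimal peaks on the autosomes, X and Y were placed by summit (column 2 plus column 10) against GENCODE M21: promoter within 1 kb of a protein-coding start site, else exon, intron or intergenic. A replicate peak matched when it overlapped by at least 1 base, and with several the highest was taken. Overlapping optimal peaks can share 1 replicate peak, which 8 of the 64 did. Motifs were searched in windows of 101 bases, and promoter sequences came from RefSeq (GRCm38.p6). Of the listed symbols all 73 further genes matched, Gcn1 and Mars1 under older symbols. Named were all members, and per further group the gene with the highest summit and those without one.

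The design has 1 group, so no test between groups was made: counts stand beside the same count over all genes or peaks. Members, lists and motifs were chosen with earlier results of these data known. Counting was checked on simulated data. Python 3.11.15, numpy 2.4.6, pandas 2.3.3 and matplotlib 3.10.9 were used. Alternatives were other distances, the conservative list, the stronger 50% of peaks, coding transcripts only, each replicate alone, other match rules and other motif windows. A replicate alone was taken as its 26883 strongest peaks. Some items are not reported here.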

Additional observations from a re-analysis of the deposited data

Results flagged for a closer look

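The conservative IDR list held 13 summits near the 10 genes that the optimal list lacks, a signal outside the list the comparisons use. They were 5 near Ddit4, 3 near Atf5, 2 near Eif2ak1 and 1 each near Ddit3, Trib3 and Ppp1r15a, and 3 of them overlapped an optimal peak. The highest, 40.8, lay 37 bases upstream of the Eif2ak1 start site, with 33.0 in replicate 1 and 9.68 in replicate 2. The Trib3 summit, 27.8, lay 83 bases upstream of its start site. The steps that set the lists apart are not stated with them.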

How the results depend on the processing

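All 10 genes kept a summit under each of 7 alternatives: 10 kb, 100 kb, the conservative list, the stronger 50% of peaks, coding transcripts only, and each replicate left out. The genome-wide share beside this count was 41.0% at 10 kb, against 65.9% in the main setting. No such share is given for the other alternatives. Whether the counts of members and of further pathway genes stand above the background there is therefore unknown. The count of summits was 28 within 10 kb and 103 within 100 kb, against 64, and those matched in both replicates were 25 and 98, against 61, by construction of the distance. With a replicate left out, the other list was cut to its 26883 strongest peaks, the size of the optimal list as deposited. This gave 62 to 73 summits, 67 to 69 further pathway genes and 3 to 6 CARE summits. These counts thus come from lists made alike in size. Median signal was then 16.5 without replicate 1 and 33.7 without replicate 2, against 51.5, on the replicate lists' own scale. CARE letters stood at 3 of 47 summits among the stronger 50% of peaks and at 3 of 62 without replicate 1, against 5 of 64. No share of all peaks is given for either setting. In windows of 25 bases to either side they stood at 2 (3.12%, against 1.27% of all optimal peaks). In windows of 100 they stood at 8 (12.5%, against 4.18%), against 5 in the windows of 50. The cause of the other changes was not tested. GATAA in place of AGATAA, chosen after seeing the data, gave 18 summits, against 15. Genes whose nearest summit had the gene itself as nearest were 9 in the conservative list, 9 among the stronger 50% and 8 to 9 with a replicate left out, against 10. For these counts too, no share of all genes is given. In all, 40 of 50 alternatives stayed within 1.5 times a count, or within 14.6 of the median signal, the SD between the replicates' medians. That SD rests on 2 values, 37.7 and 17.0, and does not measure the spread of the optimal list's median. The band of 1.5 times also leaves room for a count of 10 to fall by several. Not all of the alternatives could fail: a gene with a summit within 50 kb keeps it within 100 kb. No paired analysis was possible because the design has 1 group. Depth is unknown, so no counting error can be given for weak peaks such as the Atf5 start-site summit, 19.8.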

Other observations

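The strongest summit near the wider pathway lay at a gene of heme synthesis, which was noticed after its value was seen. The highest summit within 50 kb of Nars, 470, lay in an intron of Fech, the last enzyme of heme synthesis, with 273 in replicate 1 and 196 in replicate 2, at rank 52. It lay 16.1 kb from the nearest Nars start site and nearer to Fech.

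Among genes of amino acid supply, Slc3a2 and Slc7a5, the subunits of a large neutral amino acid transporter, had summits of 291 and 270, nearest to each gene itself, and Cars, the cysteinyl-tRNA synthetase, had a promoter summit of 271. These 3 were also chosen after their values were seen.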
